A study of Rattus norvegicus with 18 samples.

Results

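The comparison described here is present housing in the basolateral amygdala (BLA) of the rat, with 6 rats living in enrichment set against 12 rats living alone. The 6 enriched rats (EE) were kept in a group cage with toys and shelters that were changed around. The 12 single-housed rats were of both histories, 6 that had been moved from enrichment into single housing for the last weeks (ER, enrichment removal) and 6 that had been single-housed throughout (SH). The main measure for each gene was the mean of log2(value + 1) in EE minus the mean of the ER and SH means, so that both single-housed groups had equal weight. This comparison covers all 18 libraries of the series, and 18172 of the 19113 genes in the table had a mean value above 1 and were tested.

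All animals were adult male Sprague-Dawley rats that had met no behavioural test before tissue was taken. Each rat gave 1 library of polyadenylated RNA from micropunches of the BLA, and no libraries were pooled. According to the study's methods, enriched rats shared a group cage, so that a cage and its housing group cannot be told apart. They were in the enriched cage in their active phase and alone by day, so "enriched" and "single-housed" differ in part of the daily cycle only. Values are read numbers per gene after scaling by the size factor of the library, so they serve to compare rats within a gene and carry no correction for gene length.

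As background, the BLA is an almond-shaped part of the temporal forebrain that gives sensory events their emotional weight. It holds mostly glutamatergic projection neurons, with fewer GABAergic interneurons and with glia. Oligodendrocytes wrap axons in myelin and arise from precursor cells that persist in the adult brain. Microglia are the resident macrophages that survey synapses and clear debris. Enriched housing is a combined social, physical and cognitive stimulus for laboratory rodents, widely used to study experience-dependent plasticity.

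The libraries held 17753797 to 23450276 reads. Defining markers of the tissue were well detected, with Slc17a7, the vesicular glutamate transporter, at 36064 to 54047 and Gad1, the GABA-synthesizing enzyme, at 6644 to 9420.0 over the 18 rats. SH 3 and SH 1 stood apart from the other libraries. On the first principal component, which held 20.4% of the variance, SH 3 scored -137 and SH 1 scored -45.1, against -0.22 to 21.7 for the other 16. Where a median or a gene's difference turns sign or moves by over 1.5 times without both libraries, that value is given beside it. EE 6 also differed from the other enriched rats in glial genes, as described beside each result.

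No gene passed an adjusted p under 0.05 in the limma model between EE and the 12 single-housed rats (0% of tested genes, smallest adjusted p = 0.996). Without adjustment, 725 genes had a p under 0.05, of which 422 were higher (2.32%) and 303 lower (1.67%) in EE. With edgeR on recovered reads 0 genes passed and 729 had an unadjusted p under 0.05. With DESeq2 the numbers were 0 and 766. The contrast between the single-housed groups, ER minus SH (ERvSH), uses rats that the pooled contrast also uses. In this balanced design the 2 contrasts are independent only if ER and SH spread equally, and SH 1 and SH 3 stood apart. ERvSH also gave 0 genes (0%), with 830 higher (4.57%) and 604 lower (3.32%) at an unadjusted p under 0.05.

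The separate contrasts of EE with each single-housed group share the EE libraries and are therefore given side by side only. EE minus SH (EEvSH) called 0 genes (0%), with 608 higher (3.35%) and 459 lower (2.53%) at an unadjusted p under 0.05. EE minus ER (EEvER) called 0 genes (0%), with 415 higher (2.28%) and 250 lower (1.38%). Genes named below are therefore described by their values, and none is said to have changed. Each of the genes given with its values below had an adjusted p of 0.996 or above in limma.

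Of the tested genes, 2 had EE values that did not overlap the 12 single-housed values (0.011%), and both were higher in EE. Exoc3l4 (ENSRNOG00000010111), a member of the exocyst component family, had values of 27.6, 28.4, 28.1, 32.7, 30.6 and 37.5 in EE. The values were 17.6, 19.1, 11.2, 24.3, 4.14 and 14.3 in ER, and 17.7, 20.6, 6.45, 13.005, 5.89 and 7.38 in SH. The lowest enriched rat thus lay above the highest single-housed rat, and the pooled log2 difference was 1.29 (SE 0.32). ERvSH was 0.31 (SE 0.37), less than its error.

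Pcca (ENSRNOG00000057042) encodes the alpha subunit of propionyl-CoA carboxylase, a mitochondrial enzyme in the breakdown of odd-chain fatty acids and of some amino acids. It had values of 372, 394, 399.9, 400.0, 370.2 and 369.7 in EE. The values were 359, 293, 328, 295, 338 and 305 in ER, and 354, 323, 254, 309, 354 and 294 in SH. The enriched rats held a narrow range above all others, with a pooled log2 difference of 0.28 (SE 0.08, 95% interval 0.12 to 0.45) and an ERvSH of 0.03 (SE 0.09). Leaving out each library in turn gave 0.25 to 0.30 for Pcca and 1.14 to 1.38 for Exoc3l4.

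The 24 genes with the smallest unadjusted p and a mean of at least 10 comprised 15 that were higher and 9 that were lower in EE. Ankrd55, which encodes an ankyrin repeat protein, had 215, 208, 195, 164, 197 and 164 in EE. It had 129, 126, 124, 116, 122 and 113 in ER, and 124, 186, 157, 129, 154 and 98.0 in SH. The EE values lay above every ER value, whereas SH 2 at 186 reached into the EE range. The pooled log2 difference was 0.54 (SE 0.12), with 0.45 in EEvSH and 0.64 in EEvER.

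Ecel1, a membrane metallopeptidase of the endothelin-converting enzyme family, did not follow present housing. Its values were 205, 176, 170.4, 235, 237 and 168 in EE and 209, 233, 158, 128, 154 and 171 in SH, which overlapped. In ER they were 98.7, 127, 114, 129, 102 and 109, so that all but 1 of the ER rats lay below every other rat. The pooled log2 difference of 0.49 (SE 0.13) was therefore made of 0.79 in EEvER and 0.19 in EEvSH, and ERvSH was -0.60 (SE 0.15). Ankrd55 and Ecel1 were the 2 genes that DESeq2 called in EEvER (0.011% of tested genes), with adjusted p = 0.0312 for Ankrd55 and 0.00314 for Ecel1. Neither was called by limma or by edgeR.

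**Figure D1:**
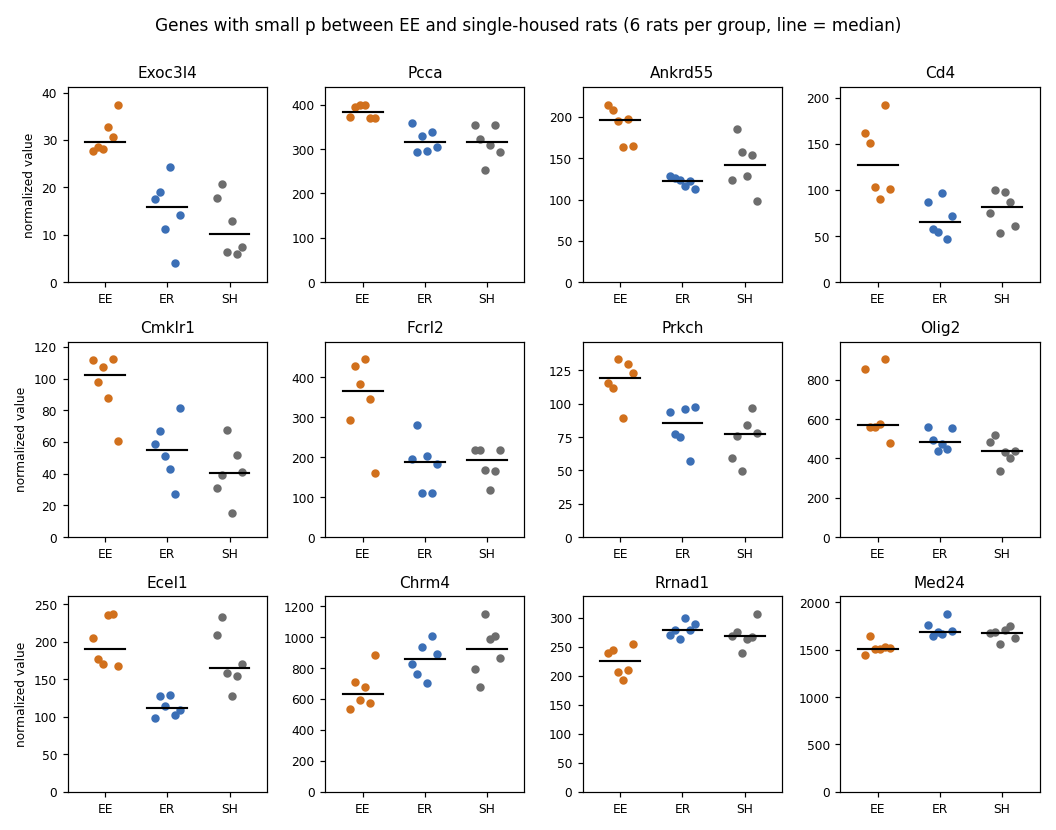
Normalized values (scaled reads, linear axes from 0) of 12 genes with small p between EE and the 12 single-housed rats. Each point is a rat in EE, ER or SH (6 each), and the line is the group median. The EE points of Exoc3l4 (27.6 to 37.5) and Pcca (369.7 to 400.0) lie above all others, whereas for Ecel1 it is ER (98.7 to 129) that lies low.

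Several of the genes that were higher in EE are known from immune cells. Cmklr1, a receptor for the chemoattractant chemerin, had 111, 97.8, 107, 88.0, 112 and 60.4 in EE, and all but EE 6 exceeded the highest single-housed value of 81.7. The single-housed median was 47.2. Cd4, a T cell co-receptor that macrophages and microglia of the rat also carry, had 162, 151, 103, 90.6, 192 and 101 in EE against 46.5 to 99.8 in single-housed rats. Again 5 of the 6 EE rats lay above all others, the exception being EE 4. Fcrl2, of the Fc receptor-like family, had 291, 427, 384, 444, 344 and 159 in EE, with 111 to 281 in single-housed rats. EE 6 alone fell inside the single-housed range. The pooled log2 differences were 1.08 (SE 0.26) for Cmklr1, 0.83 (SE 0.20) for Cd4 and 0.88 (SE 0.22) for Fcrl2, and ERvSH was 0.46, -0.20 and -0.08.

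Other genes in this set serve signalling, membrane traffic and RNA synthesis. Prkch, a protein kinase C isoform, had 116, 111, 133, 89.3, 130.2 and 123 in EE against 49.4 to 97.9 in single-housed rats, with a pooled log2 difference of 0.59 (SE 0.16). Tp53inp2, which acts in autophagy, had 2885 to 3421 in EE against 2617 to 3050.2 in single-housed rats (0.17, SE 0.05). For both genes 5 EE rats lay above every single-housed rat. Snx18, a sorting nexin, had 625 to 914 in EE against 517 to 715 (0.31, SE 0.09). Padi2, the deiminase that citrullinates myelin basic protein, had 987 to 1712 in EE against 899.7 to 1361 (0.35, SE 0.11). Its lowest EE value was that of EE 6.

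Fewer genes stood lower in EE. Chrm4, the M4 muscarinic acetylcholine receptor, had 533, 708, 590.3, 678, 574 and 887 in EE. It had 824, 761, 938, 700.4, 1007 and 891 in ER, and 792, 676, 1148, 986, 1004 and 864 in SH. EE 6 alone stood above the single-housed median of 878, and 3 of the EE rats lay below every single-housed rat. The pooled log2 difference was -0.42 (SE 0.12), with ERvSH at -0.08.

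Med24, a subunit of the Mediator complex that links transcription factors to RNA polymerase II, was at 1450.3, 1642, 1506, 1504, 1531 and 1516 in EE against 1559 to 1876 in single-housed rats. EE 2 was the only enriched rat inside that range, although the log2 difference was small at -0.15 (SE 0.05). Rrnad1 had 192 to 254 in EE against 239 to 306 (-0.29, SE 0.08). Trmu, which modifies mitochondrial transfer RNAs, had 207 to 277 in EE against 231 to 348 (-0.33, SE 0.10). Shroom3, an actin-binding regulator of cell shape, had 77.3 to 142 in EE against 119.7 to 212 (-0.51, SE 0.15). Fam228a was low throughout, with 2.05 to 18.1 in EE against 10.7 to 32.3 (-1.23, SE 0.35).

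The highest fold changes were not those with the smallest errors. AABR07070043.1, a predicted protein-coding gene, had 2014, 71.7, 567, 1023, 62.3 and 1352 in EE. It had 46.9 to 80.4 in ER and 47.3 to 83.8 in SH, except for 1457 in SH 6. Values thus fell into a low and a high state, and 4 of the 6 EE rats and 1 SH rat were in the high one. RT1-N2, a major histocompatibility complex gene, was near 0 in EE 3 (0) and EE 4 (1.26) and at 5.70 in ER 6, while the other 15 rats had 91.6 to 369. Reads of this gene family may be shared between close paralogs. Rbm20, a splicing regulator, had 23.5 to 75.5 in EE against 2.07 to 57.9 in single-housed rats (1.61, SE 0.55). Mmp9, a gelatinase that cleaves matrix proteins, had 14.3, 3.41, 2.00, 31.4, 4.53 and 31.4 in EE against 8.25 to 57.3 (-1.35, SE 0.51).

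Genes were also read in 34 lists for cell types, pathways and complexes, each described by the median pooled log2 difference of its measured members and by how many were higher in EE. Over all tested genes the median was 0.010 (-0.001 without SH 1 and SH 3), and 9589 of 18172 were higher. The list of myelinating oligodendrocyte genes had the highest median apart from a list taken from the study itself. Of its 30 members, 29 were higher in EE, with a median log2 difference of 0.32, and 14 had an unadjusted p under 0.05, all of them higher (46.7%, against 2.32% of all tested genes). The same genes had a median of 0.004 in ERvSH, where 16 were higher and 0 had an unadjusted p under 0.05. The median was 0.33 in EEvSH and 0.32 in EEvER. In bulk tissue, more oligodendrocytes and more RNA per oligodendrocyte cannot be told apart.

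The motif CTGGCAC was looked for in the promoters of these genes because MYRF, the transcription factor that drives myelin genes in mature oligodendrocytes, binds an element of this kind. RefSeq promoters (assembly GRCr8) were found for 23 of the 30 members, which have 24 promoters among them. On either strand, 6 of the 24 held CTGGCAC in the 250 bases before the start (25%), against 1266 of 33469 promoters of all genes (3.78%). A further motif, CAGCTG, an E-box of the kind that OLIG2 and other bHLH proteins can bind, was in 6 of 24 (25%) and in 4007 of all promoters (12%). These are matches of letters and not shown sites of binding. The CTGGCAC matches were in Cnp, Hapln2, Mag, Mal, Opalin and Sec14l5, which were all higher in EE, as were 29 of the 30 members. Stretches around the match of 4 of them are shown to let the motif be seen in its context. They run 5′ to 3′ on the strand of the gene, with the match in capitals (GTGCCAG where it lies on the other strand).
Cnp, chr10:86011340-86011426, plus strand, match 124 bases before the start: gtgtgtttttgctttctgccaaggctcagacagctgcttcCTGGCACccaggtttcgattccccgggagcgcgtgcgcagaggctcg
Mag, chr1:95291092-95291178, minus strand, match 94 bases before the start: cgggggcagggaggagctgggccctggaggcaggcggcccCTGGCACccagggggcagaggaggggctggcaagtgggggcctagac
Mal, chr3:135341503-135341589, minus strand, match 126 bases before the start: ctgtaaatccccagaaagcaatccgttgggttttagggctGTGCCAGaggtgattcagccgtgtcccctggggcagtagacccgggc
Opalin, chr1:249858191-249858247, minus strand, match 17 bases before the start: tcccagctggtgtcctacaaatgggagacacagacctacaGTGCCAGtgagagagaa

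Among these 4 genes, Cnp encodes a phosphodiesterase of non-compact myelin and Mag an adhesion protein of the inner myelin wrap. Mal and Opalin are membrane proteins of the sheath. In EE against single-housed rats, Cnp ranged over 5222 to 11086 against 5214 to 8211 (pooled log2 difference 0.32, SE 0.14) and Mag over 2241 to 5912 against 2403 to 4255 (0.31, SE 0.17). Mal ranged over 2356 to 8048 against 2458 to 5642 (0.32, SE 0.20), and Opalin over 1474 to 3971 against 1455 to 2649 (0.29, SE 0.17). All 4 ranges overlapped, with the highest rat of each gene in EE.

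Transcripts of myelin sheath proteins showed the pattern in most but not all of the enriched rats. Mbp, myelin basic protein, had 74591, 54685, 48764, 43837, 68852 and 31729 in EE. It had 37742, 49229, 30660.4, 49957, 34401 and 40679 in ER, and 49553, 54619.8, 36522, 32859, 31622 and 40286 in SH. EE 1, EE 5 and EE 2 exceeded all single-housed rats, whereas EE 6 was near their lowest. The pooled log2 difference was 0.37 (SE 0.16), with ERvSH at -0.01. Mog, a surface glycoprotein of myelin, had 2181, 1601, 1605, 1289, 2119 and 1006 in EE against 1024 to 1618 in single-housed rats (0.37, SE 0.14). Its highest rats were again EE 1 and EE 5, and EE 6 lay below all others.

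The lowest p-values in the list belonged to enzymes of myelin lipids. Enpp2, autotaxin, had 2323, 1621, 1564, 1317, 1991 and 1087 in EE against 719 to 1539.8 in single-housed rats (0.46, SE 0.15, 95% interval 0.15 to 0.77). Ugt8, which makes galactosylceramide, had 2632, 1981, 1744, 1458, 2509.9 and 1315 in EE against 1019.9 to 1864 (0.42, SE 0.14). Fa2h, which hydroxylates the fatty acids of these lipids, differed by 0.36 (SE 0.15). The lysophosphatidic acid receptor gene Lpar1, whose ligand autotaxin makes, differed by 0.41 (SE 0.18). Gpr37, an orphan receptor of oligodendrocytes, was the only one of these whose 6 EE values all exceeded the single-housed median, at 1874 to 3043 against 1711 to 2394. The member that went the other way was Bin1, a membrane-curving protein with many neuronal transcripts, at 8456 to 11952 in EE against 8809 to 14639.8 (-0.12, SE 0.09, and -0.05 without SH 1 and SH 3).

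**Figure D2:**
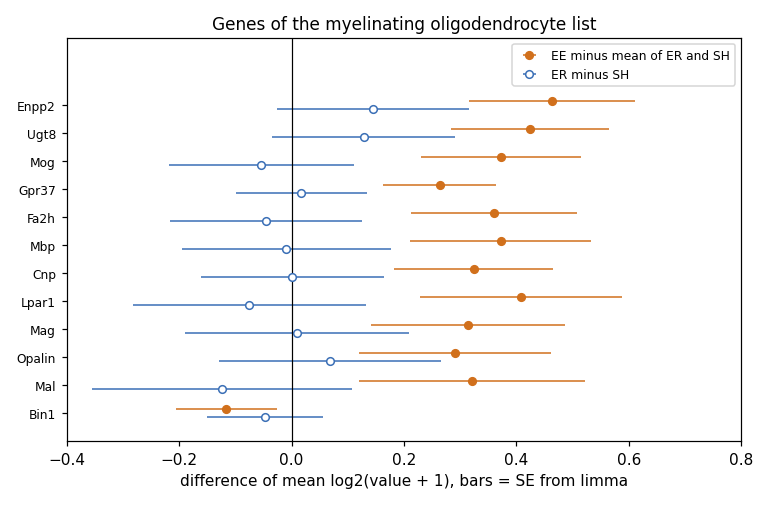
Difference of mean log2(value + 1) for the 12 genes of the myelinating oligodendrocyte list that the text names, ordered by p, with bars for the standard error from limma. Filled points are EE minus the mean of ER and SH and open points are ER minus SH. The filled points lie right of 0 (up to 0.46 for Enpp2) except that of Bin1 (-0.12), whereas the open points scatter around 0.

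Myelin genes move together within a rat, so their 30 values are not separate evidence. Summed over the list, the enriched rats had 240890, 172567, 160698, 149512, 216986 and 111252. The sums in ER were 111446 to 162474 (median 133384) and in SH 115498 to 177180 (median 128643). EE 1 and EE 5 lay above all single-housed rats, and EE 6 had the lowest sum of all 18. Of the sum, 30.003% on average came from Mbp alone. The number of members at an unadjusted p under 0.05 depended on these 3 rats. It was 2 without EE 1 (all tested genes 1.39%), 2 without EE 5 (1.45%) and 23 without EE 6 (4.42%), whereas 29 members stayed higher and the median 0.23 to 0.46 whichever library was left out. Without SH 1 and SH 3 it was 17 (4.37% of all tested genes), with 28 members higher and a median of 0.34. A punch can take up more or less of the fibre tracts beside the BLA, and the part of this in the result was not tested.

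Precursors and lineage factors went with the myelin genes to a lesser degree. Of 17 measured members, 16 were higher in EE with a median of 0.24, and without SH 1 and SH 3 it was 13 with a median of 0.15. At an unadjusted p under 0.05 there were 3 (all tested genes 2.32%), 2 without EE 1 (1.39%) or EE 5 (1.45%) and 8 without EE 6 (4.42%). There were 5 without SH 1 alone (500 of the 18172 tested genes) and 5 without SH 1 and SH 3 (4.37%). Olig2, the transcription factor of the oligodendrocyte lineage, had 857, 561, 558, 576, 905 and 481 in EE. It had 561, 496, 438, 474, 449.9 and 556 in ER, and 482, 518, 336, 433, 404 and 439 in SH. EE 1 and EE 5, the rats with the most myelin RNA, also had the most Olig2. The pooled log2 difference was 0.47 (SE 0.12), with 0.56 in EEvSH and 0.37 in EEvER. Bcas1, which marks oligodendrocytes that are beginning to myelinate, had 2381 to 5104 in EE against 2256 to 3774 (0.37, SE 0.13). Sox10 had 765 to 1517 against 762 to 1083 (0.28, SE 0.11). Pdgfra and Cspg4, markers of the precursors themselves, differed by 0.15 (SE 0.10) and 0.19 (SE 0.12).

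The microglia and macrophage list had 26 of 30 members higher in EE, with a median of 0.20. At an unadjusted p under 0.05 there were 5 higher and 1 lower (all tested genes 2.32% and 1.67%). Without SH 1 and SH 3 the median was 0.25, and 13 members were higher at that p (all tested genes 4.37%). When each library was left out, the number higher ranged from 2 to 11. It was 2 without EE 1 (all tested genes 1.39%) or EE 5 (1.45%) and 11 without EE 6 (4.42%). In ERvSH the median was -0.11, and -0.040 without SH 1 and SH 3. EEvSH had a median of 0.12 (0.21 without SH 1 and SH 3) and EEvER of 0.22. Csf1r, the receptor for the growth factor on which microglia depend, had 2542, 2265, 2390.2, 2104, 2945 and 1409 in EE against 1471 to 2122 in single-housed rats. Its EE values lay above all others in 4 rats and below all others in EE 6 (0.29, SE 0.12).

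Itgam, an integrin that serves as complement receptor, had 470.5, 463, 377, 312, 524 and 257 in EE, with 125 to 364 in ER and 185 to 410.3 in SH. The 3 highest rats were EE 5, EE 1 and EE 2, and the log2 difference was 0.57 (SE 0.23). Cx3cr1, the fractalkine receptor, had 257 to 582 in EE against 157 to 454 (0.33, SE 0.19, and 0.18 without SH 1 and SH 3). Tmem119, a defining gene of resident microglia, went the other way with 249 to 361 in EE against 205 to 522 in single-housed rats (-0.34, SE 0.16). All 6 EE rats lay below its single-housed median of 386. The genes Mrc1 and Cd163 of perivascular macrophages differed by -0.04 (SE 0.29) and -0.10 (SE 0.49). Summed over the list, EE had 12479 to 20902 (median 17826), against 11672 to 16706 in ER (median 14322) and 13225 to 19089 in SH (median 14971), and EE 6 was again the lowest enriched rat.

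Complement and phagocytosis genes, some of which are also in the microglia list, were higher in EE for 26 of 31 members, with a median of 0.23. At an unadjusted p under 0.05 there were 3 members (all tested genes 2.32%). The number was 1 without EE 5 (1.45%), 2 without EE 1 (1.39%), 6 without EE 6 (4.42%) and 9 without SH 1 and SH 3 (4.37%). It was 5 without EE 4 or ER 4 (490 and 410 of the 18172 tested genes) and 6 without SH 1 (500). Fcgr3a, an immunoglobulin receptor, had 95.1, 75.1, 75.2, 78.0, 75.9 and 38.7 in EE against 17.2 to 91.6 in single-housed rats (0.64, SE 0.28). Elmo1, which acts in the engulfment of dying cells, had 1452 to 1967 in EE against 692 to 1683 (0.34, SE 0.13). Its lowest single-housed values were those of SH 3 and SH 1, and without them the difference was 0.20. A list of 36 microglia and matrix genes from the study's own table had 34 members higher in EE, with a median of 0.37. At an unadjusted p under 0.05 there were 6 (all tested genes 2.32%) and 10 without EE 6 (4.42%). There were 3 without EE 2 or EE 3 (331 and 351 of the 18172 tested genes). The list was chosen by the study on these samples and is not independent evidence of a direction.

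**Figure D3:**
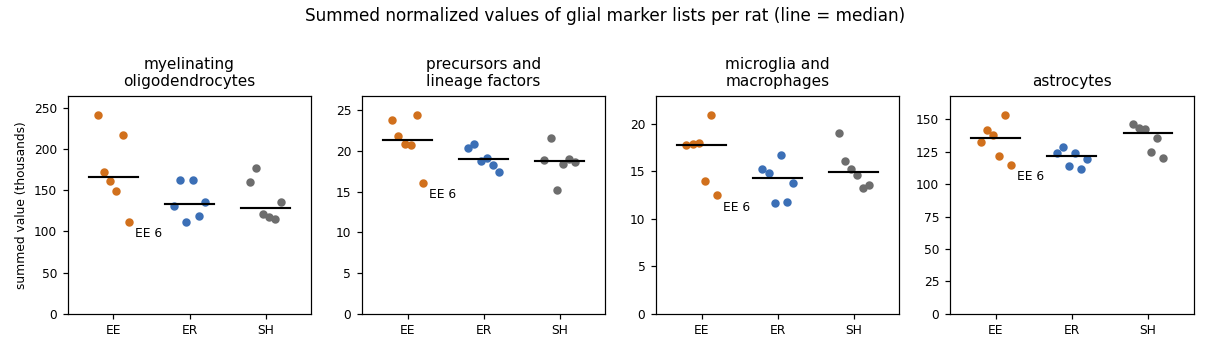
Summed normalized values per rat (axes in units of 1000) of 4 glial marker lists (linear axes from 0, lines are medians of 6 rats in EE, ER and SH). EE 1 and EE 5 have the highest sums for myelin (240890 and 216986), and EE 6 is the lowest enriched rat in all 4 panels (111252 for myelin). For astrocytes the EE and SH points overlap and ER lies lowest.

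In summed values, astrocyte genes did not divide the rats by present housing. Of 22 members, 17 were higher in EE with a median of 0.087. At an unadjusted p under 0.05 there were 2 (all tested genes 2.32%). The number ranged from 0 without EE 5 (1.45%) to 6 without EE 4 (490 of the 18172 tested genes) when each library was left out. Without SH 1 and SH 3, 17 members were again higher. At that p there were then 5 higher and 1 lower (795 and 851 of the 18172 tested genes). Within the single-housed rats, ERvSH had a median of -0.20, with 7 members lower at an unadjusted p under 0.05 (all tested genes 3.32%) and 0 higher. In EEvER, which shares the ER rats, 20 of 22 were higher and 6 of them had an unadjusted p under 0.05 (all tested genes 2.28%). Summed astrocyte values were 114678 to 152988 in EE, 111382 to 128355 in ER and 120108 to 146510 in SH. Gfap, the intermediate filament protein of astrocytes, had 6431, 5736, 6534, 5693, 8055 and 4636 in EE. It had 4263, 6670.1, 2798, 4847, 3354 and 4732 in ER, and 4649 to 5790.2 in SH. Only EE 5 exceeded all single-housed rats, and the log2 difference was 0.51 in EEvER and 0.23 in EEvSH.

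Among vessels, 15 of 18 endothelial genes were higher in EE (median 0.10) and 8 of 19 genes of mural cells and fibroblasts (median -0.015, and -0.040 without SH 1 and SH 3). Cdh5, the cadherin that joins endothelial cells, had 211, 229.8, 245, 195, 308 and 217 in EE, 173 to 191 in ER and 181 to 228 in SH. Its EE values lay above every ER value and overlapped SH (0.25, SE 0.09). Markers of blood and of the ventricle lining were read as well. The red blood cell list had 3 of 6 members higher in EE (median -0.053, and -0.011 without SH 1 and SH 3), and choroid plexus and ependyma had 6 of 9 (median 0.057, but 4 of 9 and -0.007 without SH 1 and SH 3).

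With the mean z-score of the myelin list as a covariate, 187 genes were higher at an unadjusted p under 0.05 (1.03%) and 0 were called. The medians of the glial lists then lay near 0, at 0.007 for the lineage list, -0.008 for microglia and -0.009 for complement. That of the myelin list is near 0 by construction. Since the members of the score were mostly higher in EE, the covariate also takes up part of the housing contrast. The part of myelin content in the other glial lists was not tested. The list from the study's own microglia and matrix table kept a median of 0.20, against 0.37 without the covariate. The leading genes moved to different degrees. With the covariate the differences were 1.02 for Exoc3l4, 0.28 for Pcca, 0.46 for Ankrd55, 0.55 for Prkch and -0.31 for Rrnad1. Cmklr1 stood at 0.94 and Cd4 at 0.57, whereas Olig2 stood at 0.23 and Padi2 at 0.14.

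**Figure D4:**
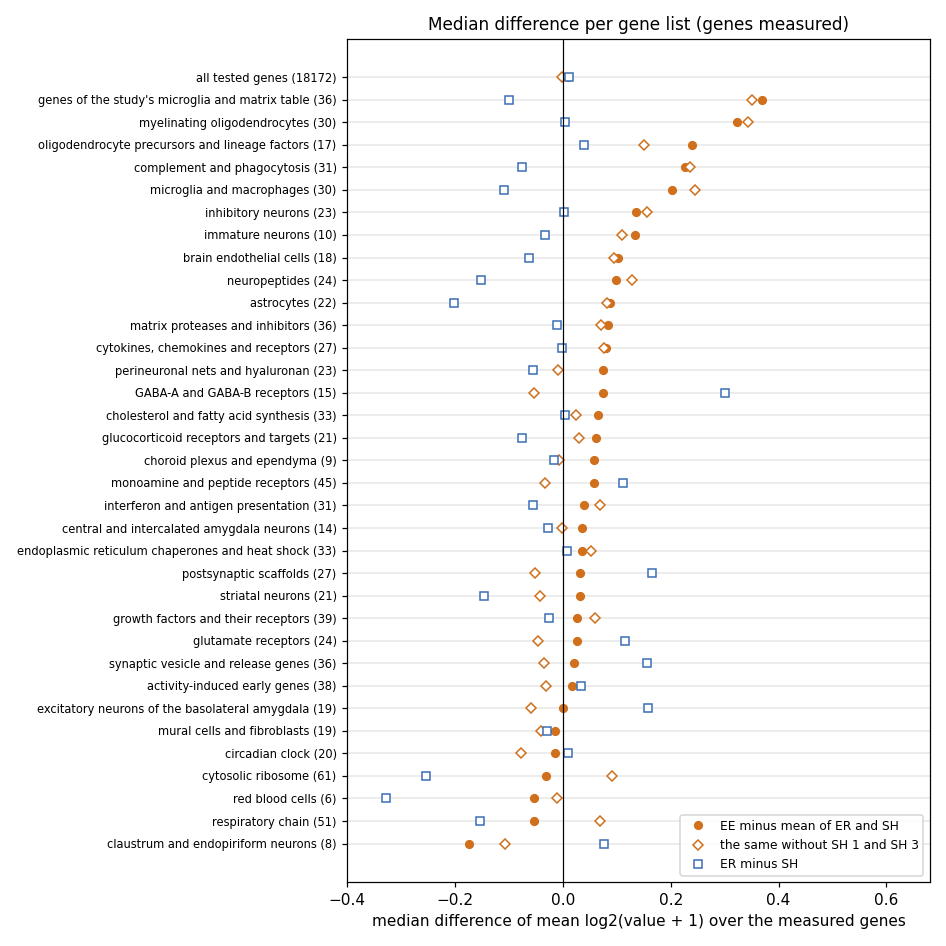
Median difference of mean log2(value + 1) for all tested genes and for each of the 34 lists, with the number of measured genes in brackets. Filled circles are EE minus the mean of ER and SH, diamonds the same without SH 1 and SH 3, and squares ER minus SH. The myelin list lies at 0.32 and 0.34 with its square at 0.004, and the cytosolic ribosome and respiratory chain lists change side without SH 1 and SH 3.

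The list of excitatory neurons of the BLA had 10 of 19 members higher in EE and a median of 0.001, or 9 of 19 and -0.060 without SH 1 and SH 3, whereas inhibitory neurons had 20 of 23 higher and a median of 0.14. In the inhibitory list 2 genes were higher at an unadjusted p under 0.05 (all tested genes 2.32%). Nxph1, 1 of them and a neurexin ligand of interneurons, had 1414 to 2318 in EE against 1151 to 2193 (0.27, SE 0.12). Gad1 itself had 6644 to 8835 against 6774 to 9420.0 (0.04, SE 0.07, and 0.08 without SH 1 and SH 3), and Sst, the peptide of a main interneuron class, had 3059 to 6528 against 2493 to 7012 (0.31, SE 0.17).

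Slc17a7 had 38055, 41824, 41652, 44138, 36414 and 54047 in EE. It had 44367 to 50004 in ER and 36064 to 47592 in SH, so that the EE rats other than EE 6 lay below all ER rats but within SH. Rspo2, a secreted Wnt modulator that marks BLA projection neurons, had 1324, 882, 1157, 1974, 1116 and 2795 in EE, with 1441 to 2645 in ER and 1349 to 1925 in SH. EE held both the lowest rats and the highest rat, EE 6, which also had the most Slc17a7 and the least myelin RNA of all 18. The log2 difference was -0.36 (SE 0.19).

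Neurod1, a neuronal transcription factor in the excitatory list, had 85.9, 116, 67.1, 46.5, 115 and 18.1 in EE against 14.8 to 70.4 in single-housed rats (0.82, SE 0.39), with EE 6 the lowest enriched rat. Markers of neighbouring regions varied in several directions. Cyp26b1, a retinoic acid-degrading enzyme in the list of central and intercalated amygdala neurons, had 2987, 2309, 3002, 3774, 1622 and 6252 in EE against 2816 to 7077 (-0.59, SE 0.22). Nts, neurotensin, of the same list, had 72.5 to 443 in EE against 24.8 to 275 (1.02, SE 0.48). Adora2a, the adenosine receptor of indirect-pathway striatal neurons, had 35.3 to 103 in EE against 70.9 to 149 (-0.52, SE 0.19).

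As lists, striatal neurons had 12 of 21 members higher in EE (median 0.031), central and intercalated neurons 10 of 14 (0.036) and claustrum and endopiriform neurons 3 of 8 (-0.17). Without SH 1 and SH 3 these were 9 of 21 (-0.043), 7 of 14 (-0.002) and 3 of 8 (-0.11). Their part in the glial and neuronal differences was not tested. With the myelin score held, Neurod1 differed by 0.48, Cyp26b1 by -0.27, Nts by 0.05 and Rspo2 by -0.07, while Adora2a differed by -0.45.

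Activity-induced early genes are transcribed within minutes of neuronal firing, and here the rats had met no test before tissue was taken. Of 38 genes, 21 were higher in EE with a median of 0.017, but 15 with a median of -0.031 without SH 1 and SH 3. Egr1, a zinc finger factor, had 2553, 3715, 3452, 2055, 2520.0 and 3189 in EE, with 1897 to 2710.4 in ER and 1638 to 3047 in SH. In EE 3 rats exceeded all single-housed rats, and the log2 difference was 0.34 (SE 0.13). Junb, a partner in the AP-1 complex, went the other way with 556, 727, 599, 547, 543 and 765 in EE against 592 to 939 (-0.25, SE 0.11). These were the only early genes with an unadjusted p under 0.05. The 1 that was higher made 2.63% of the list, against 2.32% of all tested genes.

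Fos had 65.5, 157, 82.2, 37.7, 62.3 and 81.0 in EE against 28.7 to 167 in single-housed rats (0.01, SE 0.29). Its interval of -0.59 to 0.61 leaves changes of either sign within reach of the error. Arc, whose protein acts at synapses, had 362 to 638 in EE against 383 to 1037 (-0.16, SE 0.20). Npas4 had 42.8 to 134 against 19.8 to 233 (0.12, SE 0.37), and Bdnf, a neurotrophin, 759.7 to 1893 against 827 to 1874 (-0.07, SE 0.21). All 4 overlapped widely. Without SH 1 and SH 3 the differences were -0.0053 for Fos, -0.30 for Arc, -0.017 for Npas4 and 0.014 for Bdnf.

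**Figure D5:**
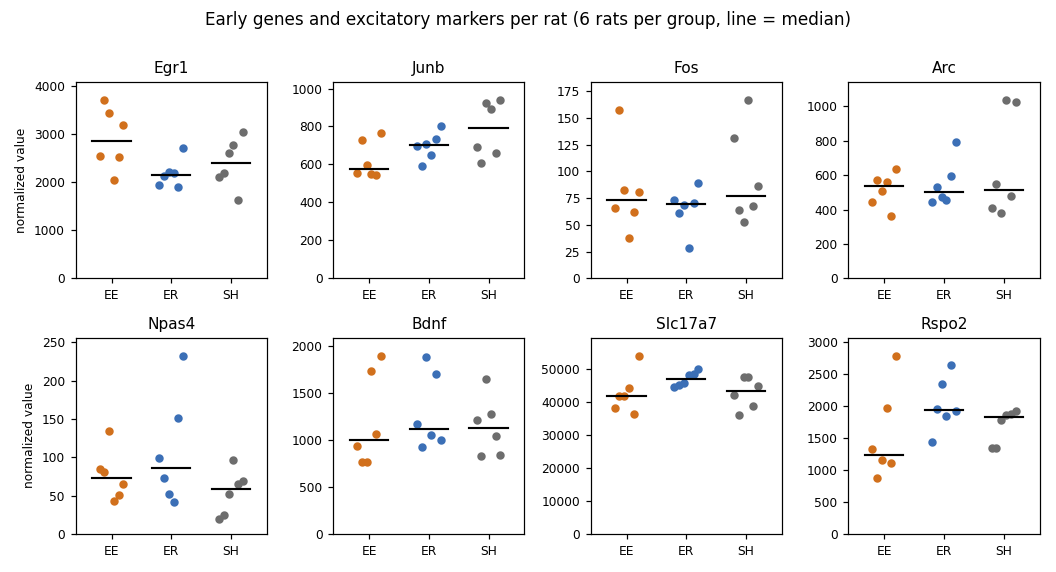
Normalized values per rat (linear axes from 0, lines are medians of 6 rats in EE, ER and SH) of 6 early genes and of 2 excitatory markers. Egr1 is the early gene whose EE points reach highest (3 rats above 3047), Junb the one whose EE points lie low, and the highest Rspo2 and Slc17a7 values (2795 and 54047) belong to EE 6.

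Genes of the response to glucocorticoids and of the clock bear on stress and on time of day. Of 21 glucocorticoid receptors and targets, 13 were higher in EE (median 0.062, and 0.029 without SH 1 and SH 3) and 0 had an unadjusted p under 0.05. Fkbp5, a chaperone gene induced by corticosterone, had 756 to 1045 in EE against 856 to 1192 (-0.12, SE 0.08). Of 20 clock genes, 9 were higher (median -0.016, and -0.079 without SH 1 and SH 3). At an unadjusted p under 0.05, 2 were lower (all tested genes 1.67%). Ciart, a repressor within the clock, had 84.9 to 207 in EE against 105 to 240.4 (-0.43, SE 0.19), and Dbp, a clock output factor, 1681 to 2365 against 1898 to 3038 (-0.17, SE 0.08).

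Genes of the extracellular matrix surround synapses and interneurons. In the list of perineuronal nets and hyaluronan, 17 of 23 members were higher in EE (median 0.075, but -0.009 without SH 1 and SH 3). Of these, 3 had an unadjusted p under 0.05 (all tested genes 2.32%). Tnfaip6, which links proteins to hyaluronan, had 59.3, 55.7, 53.1, 78.0, 55.5 and 48.3 in EE, with 18.6 to 38.2 in ER and 15.0 to 76.0 in SH (0.78, SE 0.26). The EE rats lay above all ER rats, and SH 1 and SH 4 reached into their range. Has2, a hyaluronan synthase, had 10.2 to 36.4 in EE against 3.22 to 25.0 (0.92, SE 0.42), and Cd44, a hyaluronan receptor, 54.4 to 184 against 22.3 to 115 (0.76, SE 0.32).

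Of 36 matrix proteases and inhibitors, 25 were higher in EE (median 0.084). At an unadjusted p under 0.05, 4 were higher and 1 lower (all tested genes 2.32% and 1.67%). Adamts16, a metalloprotease of low expression, had 8.18, 7.96, 10.02, 3.77, 26.0 and 18.1 in EE. It had 1.03 to 4.41 in ER and 3.12 to 11.9 in SH. The log2 difference was 1.41 (SE 0.39), with 1.88 in EEvER and 0.95 in EEvSH. The gene that was lower was Mmp9, given above.

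Receptors and peptides gave scattered members. Of 45 monoamine and peptide receptors, 28 were higher in EE (median 0.057), but 20 without SH 1 and SH 3 (median -0.034). Adra1b, an alpha-1 noradrenaline receptor, had 91.0, 149, 89.2, 101, 135 and 87.0 in EE against 51.0 to 102 in single-housed rats (0.54, SE 0.18), with all 6 above the single-housed median of 71.4. Tacr1, the substance P receptor, had 35.0 to 92.0 in EE against 12.4 to 86.8 (0.67, SE 0.31). Of 24 glutamate receptor genes, 14 were higher in EE (median 0.025), but 9 without SH 1 and SH 3 (median -0.047). Grik4 (0.29, SE 0.13) and Gria4 (0.28, SE 0.13) were among the 3 higher at an unadjusted p under 0.05 (all tested genes 2.32%). Neuropeptides had 17 of 24 members higher (median 0.098). Growth factors and their receptors had 25 of 39 (median 0.026, and 0.059 without both), with Vegfa, the endothelial growth factor, at 2086 to 2455 in EE against 1379.9 to 2516 (0.19, SE 0.09, and 0.12 without SH 1 and SH 3).

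The other immune and metabolic lists had medians below 0.1. Cytokines, chemokines and their receptors had 19 of 27 members higher in EE (median 0.079), and interferon and antigen presentation had 18 of 31 (0.038, and 0.068 without SH 1 and SH 3), with Irf9, an interferon signalling factor, at 173 to 280.3 in EE against 208 to 399.5 (-0.35, SE 0.13). Cholesterol and fatty acid synthesis had 24 of 33 (0.066, and 0.025 without SH 1 and SH 3), with Scd2, a fatty acid desaturase, at 54435 to 70884 against 46831 to 69210.4 (0.16, SE 0.07). Endoplasmic reticulum chaperones and heat shock genes had 24 of 33 (0.035). Immature neurons had 6 of 10 members higher (0.13).

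Further lists whose median turned without SH 1 and SH 3 were those of metabolism and the synapse. Of 51 respiratory chain genes, 10 were higher in EE (median -0.054), but 44 without these libraries (median 0.069). Of 61 cytosolic ribosome genes, 14 were higher (median -0.032), but 52 without them (median 0.091). Reads of ribosomal protein genes may include those of pseudogenes. The lists of GABA receptors (12 of 15 higher, median 0.074, against -0.054 without both libraries), synaptic vesicle and release genes (20 of 36, 0.020 against -0.035) and postsynaptic scaffolds (20 of 27, 0.032 against -0.053) also turned. In the scaffold list Nlgn1, a synaptic adhesion protein, was lower in EE with 1472 to 2420.1 against 1815 to 2626 (-0.20, SE 0.08).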

How the data were processed

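RNA sequencing of BLA micropunches from 18 rats (6 EE, 6 ER and 6 SH, grouped by their labels) was analysed. The other experiments of the study are not analysed here, and 0 sample columns were left unused. The deposited signal of each gene was made by the authors, who aligned reads with HISAT2, counted them per gene and scaled each library by its DESeq2 size factor. For the versions, genome build, annotation, counting tool and strand setting, the sources used here give nothing. Reads of antisense partners, pseudogenes and paralogs may thus enter a gene's value. In every library 100% of values up to 1000 reads were whole multiples of a step within 0.01 reads, and these recovered reads served edgeR, DESeq2 and voom only.

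Genes with a mean above 1 were tested, 16268 of them protein-coding. Log2(value + 1) was fitted with limma 3.58.1 in R 4.3.3 as 1 model of EE, ER and SH with the prior variance following intensity, and p was adjusted over all genes by Benjamini-Hochberg (threshold 0.05). The study itself used fold changes without a test. Fold changes and SE are on the log2(value + 1) scale, which understates low genes. In the text, values after "in EE against" are the range of the 12 single-housed rats unless said otherwise.

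The 34 lists were written from general knowledge or, for 1 of them, taken from the study, and the comparison, members and lists were chosen with earlier results of these data known. Of 906 listed symbols, 850 were found by name, 5 by identifier or synonym and 51 were not matched. Named genes were those called, filled to 24 by the smallest p at a mean of at least 10, the 5 highest and 5 lowest fold changes, up to 4 per list by p, genes without overlap, fixed tissue markers and genes whose call changed under an alternative. Bin1, Cd163, Cnp, Cspg4, Fa2h, Lpar1, Mag, Mal, Mrc1, Opalin, Pdgfra and Tmem119 were added after their values were seen. Hapln2 and Sec14l5 are named for their promoters only. Some genes within the rule are left out of the text.

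Replicate numbers did not pair the rats. Deviations of same-numbered libraries correlated at a median of 0.0049, and those of other numbers at 0.0055. Alternatives were TMM and upper-quartile scaling from edgeR 4.0.16, other filters and pseudocounts (0.1 and 5), count tests with edgeR, DESeq2 1.42.0 and voom with sample weights, leaving out libraries, a replicate block, ER and SH as 1 group, and the myelin score as covariate. Promoters came from RefSeq (GRCr8), whose coordinates do not refer to the authors' build.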

Additional observations from a re-analysis of the deposited data

Results flagged for a closer look

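For the 77 genes checked, the rat farthest from its group was tested in each of 231 groups of 6, and 10 groups held 1 rat apart from the rest, no more than the 1 in 20 that chance gives. In EE these were EE 6 for Fcgr3a (38.7, next 75.1) and for LOC100360244 (15.7, next 2.28), EE 2 for Fos (157, next 82.2) and EE 4 for Tnfaip6 (78.0, next 59.3). In ER these were ER 6 for RT1-N2 (5.70, next 237) and ER 1 for Ptgfr (23.5, next 6.36). In SH these were SH 6 for AABR07070043.1 (1457, next 83.8), SH 3 for Bin1 (14639.8, next 10841) and for Dbp (3038, next 2489), and SH 2 for Sox10 (1083, next 899). EE 6 was low for the immune receptor Fcgr3a and was also the lowest of all 18 rats in summed myelin values.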

How the results depend on the processing

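No setting of scaling, filter, pseudocount or test made a gene pass between EE and the single-housed rats. The numbers at an unadjusted p under 0.05 were 725 in limma, 1809 with voom weights, 1646 without SH 1 and SH 3, 408 with the myelin score held and 484 (without EE 1) to 1326 (without EE 6) when each library was left out. Leaving out each library in turn called 0 to 1 genes in that contrast and 0 to 1 in EEvER. The 1 gene, called without EE 6 in both, was LOC100360244 (log2 difference -2.48, adjusted p = 0.0262 in limma, and -1.89 with all rats). DESeq2 called 2 genes in ERvSH (Aurkc and Ctxn3), 1 in EEvSH (Aurkc) and 2 in EEvER. The genes without overlap numbered 8 without SH 1 and SH 3 (4 higher and 4 lower), and 2 to 16 when each library was left out, with 16 without EE 6, 6 without EE 4 and 4 without EE 1, EE 2 or EE 5. With the replicate block 0 genes passed and 723 had an unadjusted p under 0.05, and the same-numbered rats of only 4 of 18 libraries were their best partners, so the block was not used.

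A few log2 differences changed sign. Slc17a7 was 0.045 and Arc 0.0038 with the myelin score held. Fos was -0.0053 without SH 1 and SH 3 and -0.21 to 0.20 when each library was left out. Npas4 was -0.0038 in edgeR, -0.017 without SH 1 and SH 3 and -0.060 to 0.27 when each library was left out. Bdnf was 0.014 without SH 1 and SH 3, 0.24 with the myelin score held and -0.23 to 0.036 when each library was left out. The cause of these turns was not tested. Of the 77 genes checked, the others kept their sign under all alternatives. Medians moved by more than the spread between rats with the myelin score held for the myelin (-0.003), lineage (0.007), microglia (-0.008), complement (-0.009) and claustrum (0.028) lists.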

Other observations

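LOC100360244, a predicted protein-coding gene of low expression, had 0, 2.28, 1.00, 0, 0 and 15.7 in EE, 10.7, 8.48, 14.5, 6.62, 8.27 and 5.70 in ER, and 6.25, 6.51, 3.22, 9.46, 4.71 and 6.33 in SH. The enriched rats other than EE 6 lay below all 12 single-housed rats, and EE 6 lay above them all. Ptgfr, a prostaglandin receptor gene, had 5.01 to 34.1 in EE against 0 to 23.5 in single-housed rats, with all 6 enriched rats above the single-housed median of 4.24. Cilp, a matrix protein of cartilage, had 14.3, 0, 10.02, 8.80, 1.13 and 0 in EE against 4.34 to 36.6 in single-housed rats. These values rest on few reads and were chosen after they had been seen.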
